A study of Mus musculus with 8 samples.

Results

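The genes described are the 6 members of the platelet-derived growth factor (PDGF) family, the 4 ligands *Pdgfa*, *Pdgfb*, *Pdgfc* and *Pdgfd* and the 2 receptors *Pdgfra* and *Pdgfrb*. They were chosen by gene symbol, as 6 of the 48526 genes in the count table, and all 6 had counts. Left and right heart fields were dissected separately from 4 wild-type male C57bl6/J mouse embryos at stage E8.5f (embryonic day 8.5), named L29-3, L43-5, L46-8 and L49-3, and each of the 8 poly-A RNA samples was sequenced as 1 library. No allele was modified and no agent was given. Each heart field reached caudally as far as somite 2 and did not include the heart tube or the dorsal tissue. It is thus a piece of tissue that can hold several cell types, and the question is whether these genes differ between its sides.

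PDGF ligands are secreted dimers that bring together a pair of receptor chains, whose kinase domains then phosphorylate each other and recruit adaptor proteins. PDGF-A and PDGF-C act mainly through PDGFRα, which is widely expressed in embryonic mesenchyme, including mesoderm that contributes to the heart. PDGF-B and PDGF-D act mainly through PDGFRβ, the receptor that marks the mural cells of vessels, which PDGF-B from the endothelium recruits.

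In these libraries both receptors and *Pdgfa* were well detected, whereas *Pdgfb*, *Pdgfc* and *Pdgfd* had few counts. After scaling for library size, *Pdgfrb* was at a higher level on the left in 4 of 4 embryos, by a log2 fold change of 0.30 (standard error 0.103), but did not pass the adjustment for all genes. *Pdgfra* and *Pdgfa* had no side that was higher in all embryos. Both libraries of L49-3 had the lowest *Pdgfra* and the highest *Pdgfa*, but the differences between embryos did not pass the adjustment either (edgeR, adjusted p of 0.117 and 0.496).

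*Pdgfra* (ENSMUSG00000029231) lies on chromosome 5 of GRCm38 from 75152292 to 75198215 on the plus strand, and *Pdgfa* (ENSMUSG00000025856) on chromosome 5 from 138976014 to 138997370 on the minus strand. The 250 bases before a RefSeq start of each gene are shown 5′ to 3′, from the GRCm38.p6 build. These genes were picked because both libraries of L49-3 had the lowest *Pdgfra* and the highest *Pdgfa* of all libraries. *Pdgfb*, which had few counts, was lowest in L49-3 too. RefSeq has 2 starts for *Pdgfa*, and the one nearer to a GENCODE start is shown. Capitals mark each CG dinucleotide.
*Pdgfra*, chr5:75152001-75152250, plus strand: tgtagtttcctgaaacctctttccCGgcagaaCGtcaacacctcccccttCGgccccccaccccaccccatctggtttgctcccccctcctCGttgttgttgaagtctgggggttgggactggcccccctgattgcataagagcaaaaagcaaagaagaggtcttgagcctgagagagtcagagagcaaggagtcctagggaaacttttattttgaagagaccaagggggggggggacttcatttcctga
*Pdgfa*, chr5:138994945-138995194, minus strand: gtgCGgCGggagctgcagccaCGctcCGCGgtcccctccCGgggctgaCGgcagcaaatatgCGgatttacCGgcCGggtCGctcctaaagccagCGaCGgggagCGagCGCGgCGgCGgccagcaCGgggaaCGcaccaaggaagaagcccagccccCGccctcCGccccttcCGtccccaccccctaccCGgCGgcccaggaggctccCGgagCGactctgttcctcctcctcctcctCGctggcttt
The *Pdgfa* stretch held 28 CG dinucleotides and 72.4% G or C, and it had more CG dinucleotides than 92.4% of the 32851 promoters of the same length in RefSeq. The *Pdgfra* stretch held 4 CG dinucleotides and 54.4% G or C, close to the medians of 6 and 52.4% over all promoters. The stretch before the other *Pdgfa* start, chr5:138994282-138994531, held 19 CG dinucleotides, more than 80.3% of promoters, and 66.4% G or C. The GC box, searched as the letters GGGCGG on both strands, had 2 matches before the *Pdgfa* start shown, 1 before the other *Pdgfa* start and 0 before *Pdgfra*, and at least 1 match in 32.7% of all promoters. The TATA box, searched as TATAAA on both strands, had 0 matches in any of these stretches and was found in 12.4% of all promoters. These letters are a description of the sequence, not of binding. By the GENCODE vM21 annotation, the *Pdgfra* stretch ends before the gene begins, and the *Pdgfa* stretch lies inside the gene's annotated span, which begins further upstream.

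Of the other members, *Pdgfrb* (ENSMUSG00000024620) lies on chromosome 18 from 61045150 to 61085061 on the plus strand. *Pdgfb* (ENSMUSG00000000489) lies on chromosome 15 from 79995874 to 80014977 on the minus strand. *Pdgfc* (ENSMUSG00000028019) lies on chromosome 3 from 81036416 to 81214040, and *Pdgfd* (ENSMUSG00000032006) on chromosome 9 from 6168584 to 6378850, both on the plus strand. *Pdgfa* shares 813 exon bases with the antisense gene *6330403L08Rik*, which had 114 counts in all libraries together, against 1049 for *Pdgfa*. The use of the strand in counting is not given in the sources used here, so reads from these overlapping genes may not be fully told apart. The genes that share exon bases with *Pdgfra* (*Gm42802*, *Gm42803* and *Mir7025*) and with *Pdgfc* (*Gm16000*) had at most 1 count, and *Pdgfb*, *Pdgfd* and *Pdgfrb* shared exon bases with no other gene.

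The total count of a library lay between 1147446 and 3520753 (median 1916167), and both libraries of L49-3 were the smallest. Values per library are given as normalized counts, the counts divided by the library's DESeq2 size factor. Following the filter of the study, a gene was tested when it had at least 20 normalized counts in at least 4 of the 8 libraries, which 9744 genes had. *Pdgfra*, *Pdgfrb* and *Pdgfa* were at or above 20 in all 8 libraries. *Pdgfd* reached 20 in 1 library, and *Pdgfb* and *Pdgfc* in 0, so that these 3 members were not tested with the rest. The counts summed over all libraries were 3952 for *Pdgfra*, 1679 for *Pdgfrb*, 114 for *Pdgfd*, 110 for *Pdgfc* and 74 for *Pdgfb*.

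**Figure D1:**
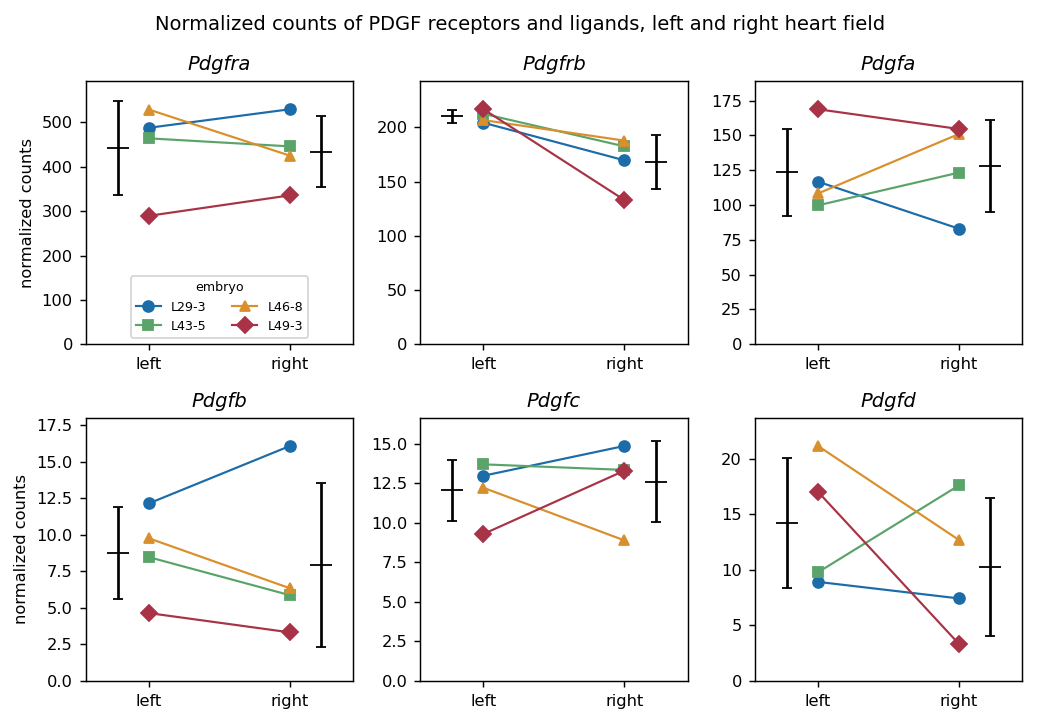
Normalized counts (vertical axes, each from 0) of the 6 genes in the left and right heart field, with a line for each of the 4 embryos and, beside the points, the mean and SD of each side (n = 4). The 4 left libraries lie between 204 and 217 for *Pdgfrb*, above the 4 right libraries at 133 to 188, while the points of the other genes overlap between sides.

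*Pdgfrb*, the receptor for PDGF-B and PDGF-D, had 204 normalized counts left and 170 right for L29-3, 213 against 182 for L43-5, 207 against 188 for L46-8 and 217 against 133 for L49-3. Every left library was above every right library, so the sides did not overlap. Of the 9744 genes tested, 2.51% had sides that did not overlap, 1.51% with all left libraries above all right libraries, and 6.18% were higher on the left in all 4 embryos. The left mean was 210 ± 5.64 and the right mean 168 ± 24.7 (SD, n = 4), so that the right libraries were the more spread. The log2 fold change was 0.30 (standard error 0.103, 95% confidence interval 0.08 to 0.53), or 1.23-fold, with an adjusted p = 0.987 (unadjusted p = 0.0124) in the quasi-likelihood test of edgeR, with the embryo as a block and Benjamini-Hochberg adjustment.

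*Pdgfrb* therefore passed the threshold of the study, 1.2-fold or more at an unadjusted p up to 0.05, and was the 1 member of the 3 tested that did. That threshold was passed by 3.05% of all genes tested, 1.63% higher and 1.42% lower on the left. An unadjusted p up to 0.05 alone was reached by 4.36%, and an adjusted p under 0.05 was reached by 0.0103%, that is by 1 gene, which is no member. *Pdgfrb* had the rank 81 by unadjusted p, and 8.51% of genes had a difference at least as large in either direction.

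L49-3 contributed most to this difference. The ratio of left to right, from counts with an exact 95% interval for counting error, was 1.21 in L29-3 (0.979 to 1.50), 1.16 in L43-5 (0.998 to 1.36), 1.09 in L46-8 (0.890 to 1.35) and 1.62 in L49-3 (1.22 to 2.16). In L49-3 alone did the interval lie above 1. Without L49-3 the log2 fold change of *Pdgfrb* was 0.21, with an unadjusted p of 0.062, and with DESeq2 it was 0.31, with an unadjusted p of 0.0624, so that in both cases 0 members passed the threshold. The exact two-sided sign-flip permutation test over the embryos gave a p of 0.125, the smallest that 4 pairs allow.

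**Figure D2:**
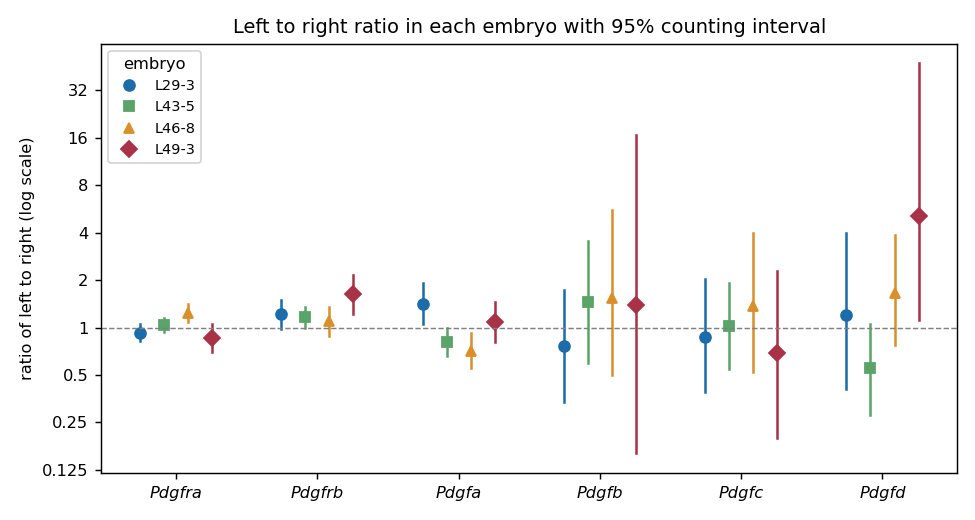
Ratio of left to right (log axis) of each gene in each of the 4 embryos, with the exact 95% interval for counting error as a vertical line; the dashed line marks equal levels. *Pdgfrb* lies above 1 in 4 of 4 embryos, from 1.09 to 1.62, and the intervals of *Pdgfb*, *Pdgfc* and *Pdgfd* are wide.

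*Pdgfra*, the receptor for PDGF-A and PDGF-C, had 488 normalized counts left and 530 right for L29-3, 464 against 446 for L43-5, 529 against 425 for L46-8 and 290 against 336 for L49-3. The left was the higher side in 2 of 4 embryos, with overlap between sides. The left mean was 443 ± 106 and the right mean 434 ± 79.7 (SD, n = 4). The log2 fold change of 0.02 (standard error 0.0865) had an adjusted p = 0.996 in the quasi-likelihood test of edgeR. Its 95% confidence interval ran from 0.891-fold to 1.16-fold, so that 1.2-fold lay outside this interval in either direction. The interval draws on the spread of other genes too, and the log2 ratios of the 4 embryos alone had an SD of 0.230. In L46-8 alone the ratio of left to right was 1.24, with a counting interval of 1.08 to 1.42. The intervals of the other embryos held 1.

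Between embryos, *Pdgfra* varied more than between sides. Both libraries of L49-3 were below the other 6, which ranged from 425 to 530, and the mean of L49-3 was 0.651 times that of the other embryos. The embryo term of the edgeR fit had an adjusted p = 0.117 (unadjusted p = 0.000907), the rank 74 of 9744 genes. By comparison, 9.99% of all genes had an unadjusted p of at most 0.05 and 0.174% an adjusted p under 0.05 between embryos, and 9.06% had both libraries of L49-3 below the other 6. Without L46-8 the adjusted p of *Pdgfra* was 0.0115, and without L49-3 it was 0.985.

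*Pdgfa*, the best detected ligand, had 117 normalized counts left and 82.9 right for L29-3, 99.7 against 123 for L43-5, 108 against 151 for L46-8 and 169 against 155 for L49-3. The side with more counts was the left in L29-3 and L49-3 and the right in L43-5 and L46-8. The left mean was 123 ± 31.0 and the right mean 128 ± 33.1 (SD, n = 4). The log2 fold change of -0.08 (standard error 0.150, 95% confidence interval -0.40 to 0.25) had an adjusted p = 0.987 in the quasi-likelihood test of edgeR. The counting interval of the ratio lay above 1 in L29-3 (1.41, 1.05 to 1.92) and below 1 in L43-5 (0.809, 0.655 to 0.997) and L46-8 (0.712, 0.552 to 0.920), which are opposite directions.

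In contrast to *Pdgfra*, *Pdgfa* was highest in L49-3. Both of its libraries were above the other 6, which ranged from 82.9 to 151, as was the case for 8.25% of the genes tested, and the mean of L49-3 was 1.42 times that of the other embryos. The embryo term had an adjusted p = 0.496 (unadjusted p = 0.0489) in edgeR. Over the 8 libraries, the log2 levels of *Pdgfa* and *Pdgfra* had a Pearson r of -0.855, and of -0.779 over the 6 libraries without L49-3. The points share embryos and are a description, and the pattern was noticed in the data. Each library gives both values from the same RNA and scaling. *Pdgfrb* followed neither gene, with an r of -0.131 with *Pdgfa* and 0.175 with *Pdgfra*, and its embryo term had an adjusted p of 0.894.

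Some tissue markers also differed in L49-3. The summed level of the 12 neural tube markers, in counts scaled to the library size (CPM) per kb of exon, was 117 (left) and 125 (right) in L49-3, against 30.4 to 75.6 in the other 6 libraries. *Sox2*, *Pax6* and *Sox1*, transcription factors of neural progenitors, had the most counts in this list. The 10 cardiomyocyte markers summed to 173 (left) and 591 (right) in L49-3, against 548 to 1432 in the others, so that the right library lay inside this range. The 12 epithelial and surface ectoderm markers summed to 470 and 523, against 554 to 685, with a lower *Krt8* (407 and 528 normalized counts, against 546 to 807) but not a lower *Epcam* (192 and 136, against 132 to 184). The 16 heart field and lateral plate mesoderm markers, all of which were tested, summed to 235 and 258, against 249 to 409, and their members went opposite ways. *Gata4* (20.1 and 71.5 normalized counts, against 173 to 335) and *Tbx5* (20.1 and 19.9, against 89.97 to 164) were below the other libraries, whereas *Isl1* (146 and 170, against 91.6 to 123) was above them. The part of these tissues in the levels of *Pdgfra* and *Pdgfa* was not tested. In such bulk samples fewer cells of a type and less RNA per cell cannot be told apart.

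**Figure D3:**
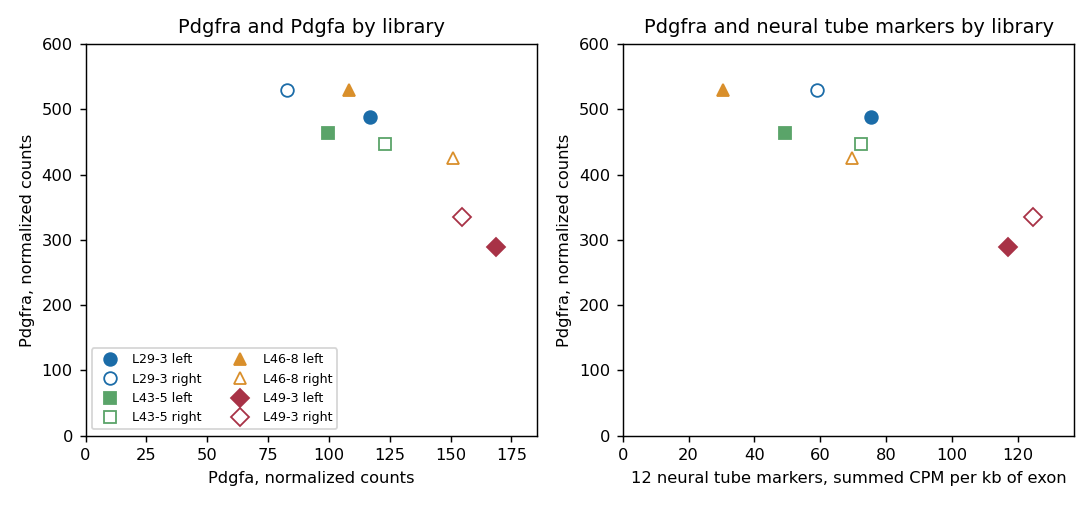
*Pdgfra* in normalized counts (vertical axes) against *Pdgfa* in normalized counts (left) and against the summed level of 12 neural tube markers in CPM per kb of exon (right), with 1 point for each of the 8 libraries and open symbols for the right side. Both libraries of L49-3 have the lowest *Pdgfra* (290 and 336), the highest *Pdgfa* (169 and 155) and the highest marker sums (117 and 125).

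The log2 level of *Pdgfra* had a Pearson r of -0.823 with the sum of the neural tube markers and of 0.876 with that of the cardiomyocyte markers over the 8 libraries. Without L49-3 these values were -0.565 and 0.567 (n = 6). Such values were not particular to these lists. Over the 8 libraries *Pdgfra* had an r of 0.897 with the extracellular binders and co-receptors described below. Its r was 0.820 with the epithelial, 0.798 with the mural and 0.786 with the heart field markers. For *Pdgfa* and the neural tube markers the r was 0.698, and 0.357 without L49-3. Over the 8 libraries *Pdgfa* had an r of -0.808 with the epithelial, -0.797 with the foregut and -0.770 with the cardiomyocyte markers. These values come from libraries that share embryos and are given without a test.

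The low ligands had between 2 and 33 counts in a library. *Pdgfb*, the endothelial ligand of PDGFRβ, had 15 counts left and 13 right for L29-3, 13 against 11 for L43-5, 12 against 5 for L46-8 and 3 against 2 for L49-3. Its normalized counts were 8.76 ± 3.14 (left) and 7.91 ± 5.62 (right) (SD, n = 4). The mean log2 ratio of left to right was 0.26 (SD 0.447, n = 4), with a p of 0.375 in the exact two-sided sign-flip permutation test. *Pdgfb* was lowest in L49-3, with 4.64 and 3.32 normalized counts against 5.87 to 16.1 in the others, and the sum of the 13 endothelial markers was lowest there too, at 107 and 74.2 CPM per kb against 112 to 132. The r between both, on the log2 scale, was 0.739 over 8 libraries and 0.494 without L49-3. Members of the endothelial list differed in L49-3. *Tie1* (34.1 and 34.9 normalized counts, against 62.2 to 97.3) was below the other libraries. *Etv2* was above them on the left (44.9, against 18.6 to 33.4) and inside their range on the right (19.9). The part of endothelial cells in the level of *Pdgfb* was not tested.

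*Pdgfc*, a ligand that is cut by proteases before it binds PDGFRα, had 16 counts left and 12 right for L29-3, 21 against 25 for L43-5, 15 against 7 for L46-8 and 6 against 8 for L49-3. It had a coefficient of variation over the 8 libraries of 17.3%, where counting error alone gives 29.4%. The mean log2 ratio was -0.07 (SD 0.380, n = 4), with a p of 0.75 in the exact sign-flip permutation test.

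*Pdgfd*, the other ligand that is activated by proteases, had 11 counts left and 6 right for L29-3, 15 against 33 for L43-5, 26 against 10 for L46-8 and 11 against 2 for L49-3. The sides went in opposite directions, with a ratio of left to right of 0.555 in L43-5 and 5.09 in L49-3, the latter with a counting interval from 1.11 to 47.3 and only 2 counts on the right. Its coefficient of variation of 48.9% was above the 29.5% of counting error, as was the case for *Pdgfb* (50.8% and 35.8%). The mean log2 ratio was 0.54 (SD 1.21, n = 4), with a p of 0.5 in the exact sign-flip permutation test, and it was 0.027 without L49-3 and 0.998 without L43-5. No difference between sides was detected for the 3 low ligands, but the sign-flip test over 4 embryos cannot give less than 0.125 at any count. The edgeR fit with no filter gave an unadjusted p of 0.587 for *Pdgfb*, 0.969 for *Pdgfc* and 0.416 for *Pdgfd*. Ratios of the size found for *Pdgfrb* lay inside the counting intervals of these ligands in 11 of 12 embryo ratios.

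Levels of different genes were compared per length, as CPM per kb of exon. *Pdgfra* had 23.7 ± 4.66, *Pdgfa* 21.8 ± 5.19 and *Pdgfrb* 18.7 ± 2.73 (SD, n = 8 libraries of 4 embryos). *Pdgfd* had 2.10 ± 1.02, *Pdgfc* 1.31 ± 0.226 and *Pdgfb* 1.08 ± 0.550. At this length, the union of all exons, the ligand and the receptors of the upper group were not separated by their spread. *Pdgfra* was above *Pdgfa* in 5 of 8 libraries and *Pdgfa* above *Pdgfrb* in 5 of 8, with mean log2 differences of 0.12 (SD 0.608 over 4 embryos) and 0.20 (SD 0.379). *Pdgfrb* was above *Pdgfd* in 8 of 8 libraries, by a mean log2 difference of 3.24 (SD 0.408), or 9.47-fold. In the lower group, *Pdgfd* was above *Pdgfc* in 6 of 8 libraries and *Pdgfc* above *Pdgfb* in 6 of 8. The exact two-sided sign-flip permutation test over 4 embryos, which cannot give less than 0.125, gave that value for *Pdgfrb* and *Pdgfd* and 0.25 to 0.75 for the other 4 neighbours. The adjusted values over the 5 comparisons were 0.625 to 0.75. With the length of the longest transcript instead, the log2 difference of *Pdgfa* over *Pdgfrb* was 0.79, with p = 0.125 in the same exact test. That of *Pdgfd* over *Pdgfc* was 0.016, with p = 1.0 in the exact two-sided sign-flip permutation test. *Pdgfra* over *Pdgfa* was then 0.077 and *Pdgfc* over *Pdgfb* 0.39. The order within both groups was thus the same with either length, while the size of the differences depended on the length used.

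**Figure D4:**
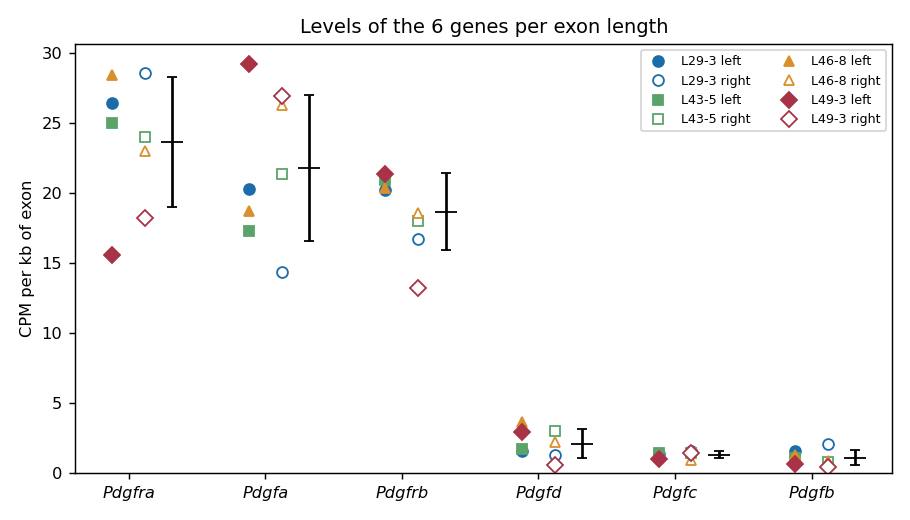
Levels of the 6 genes in CPM per kb of exon (vertical axis from 0), with filled symbols for left and open symbols for right libraries and the mean and SD over the 8 libraries. *Pdgfra*, *Pdgfa* and *Pdgfrb* overlap, with means from 18.7 to 23.7, and *Pdgfd*, *Pdgfc* and *Pdgfb* lie below them, with means from 1.08 to 2.10.

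The balance of members within a library does not depend on its scaling. The ratio of *Pdgfrb* to *Pdgfra* counts was 0.419 left and 0.320 right for L29-3, 0.458 against 0.409 for L43-5, 0.391 against 0.442 for L46-8 and 0.749 against 0.396 for L49-3. The left had the higher ratio in 3 of 4 embryos, by a mean log2 difference of 0.32 (SD 0.458), with a p of 0.375 in the exact sign-flip permutation test and an adjusted p of 0.875 over the 5 ratios compared. Per length of the union of all exons, *Pdgfrb* made up 57.8% of the receptor level in the left library of L49-3 and 36.9% to 45.6% in the other 7. This share depends on the length used. The union is 10024 bases for *Pdgfra* and 5478 for *Pdgfrb*, and the longest transcript 6834 and 5423, which would give *Pdgfrb* a lower share. The ratios of *Pdgfa* to *Pdgfra*, *Pdgfc* to *Pdgfra*, *Pdgfb* to *Pdgfrb* and *Pdgfd* to *Pdgfrb* had mean differences between sides of -0.05, -0.07, -0.07 and 0.21 on the log2 scale, with p of 0.5 to 0.875 in the same exact test.

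The rest of the pathway was described with 6 lists, from ligand processing to immediate early genes. Of their 107 genes 83 were tested, 2 passed the threshold of the study as higher and 1 as lower on the left, and 0 had an adjusted p under 0.05. This is close to the 3.05% of all genes tested that passed. The median log2 fold change of the 83 genes was 0.03, beside -0.00 over all genes tested, with 51 positive and 32 negative, beside 4734 and 5010 over all genes.

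Among the 12 proteases and inhibitors of ligand processing, 7 were tested and 0 passed. *Furin*, a convertase that cuts growth factor precursors, had 140 ± 37.1 normalized counts (left) and 153 ± 28.4 (right) (SD, n = 4), and *Plat*, the plasminogen activator that can activate PDGF-C, had 91.2 ± 7.35 and 79.9 ± 12.2. The median of the list was -0.08. *Plau*, the other plasminogen activator in the list, had a mean of 5.07 normalized counts and was not tested.

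The extracellular binders and co-receptors, of which 10 of 12 were tested, had a median log2 fold change of 0.18, and 8 of the 10 values were positive, where 4734 of 9744 were over all genes. Without L43-5 this median was 0.046. *Thbs1*, a secreted matrix protein, had 85.9 normalized counts left and 55.7 right for L29-3, 70.4 against 26.7 for L43-5, 35.8 against 20.3 for L46-8 and 74.3 against 41.5 for L49-3. The left side was thus higher in 4 of 4 embryos, by a log2 fold change of 0.95 (standard error 0.187), with an adjusted p = 0.473 (unadjusted p = 0.000291) in edgeR. *Thbs1* passed the threshold under each embryo left out, with values from 0.74 to 1.08, and with DESeq2 and limma-voom. *Lrp1*, a large endocytic receptor that associates with PDGFRβ, had 842 ± 93.3 normalized counts (left) and 715 ± 108 (right) (SD, n = 4). Its log2 fold change of 0.24 (standard error 0.0648), positive in 4 of 4 embryos, was under the fold threshold, with an adjusted p = 0.987 (unadjusted p = 0.0031) in edgeR.

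Downstream of the receptors, 25 of 27 adaptors and enzymes that act at the receptor were tested and 0 passed, with a median of 0.04. *Shc1*, an adaptor of activated receptors, was the one with the smallest p, at a log2 fold change of 0.23 (4 of 4 embryos). In the ERK and AKT cascades 18 of 18 genes were tested, with a median of 0.03. *Rps6kb2*, an S6 kinase, passed there, with a log2 fold change of 0.41 and an unadjusted p of 0.0456, and did not without L29-3, L43-5 or L49-3, with DESeq2 or limma-voom, or with no replicate block. In the list of receptor turnover and phosphatases 12 of 16 genes were tested, with a median of 0.03, and *Ptpn2*, a tyrosine phosphatase, passed in the other direction, at a log2 fold change of -0.28 and an unadjusted p of 0.0432. It passed without L29-3 but not when any other embryo was left out, nor with DESeq2 or limma-voom. *Cbl*, a ubiquitin ligase of activated receptors, had a log2 fold change of 0.20 in 4 of 4 embryos and did not pass.

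Of the 22 immediate early genes, which growth factors induce, 11 were tested and 0 passed, with a median of -0.01. *Jun* had 76.0 ± 20.6 normalized counts (left) and 58.0 ± 12.3 (right) (SD, n = 4). *Fos*, *Fosb*, *Egr1* and *Egr3* had means of 2.44, 0.54, 6.55 and 0.53 normalized counts and were not tested. Among the related receptors of the same family, *Kit*, *Flt1*, *Kdr* and *Flt4* were tested and 0 passed. Their log2 fold changes were all positive, from 0.18 to 0.25. *Kdr*, the main VEGF receptor of endothelial cells, had 0.20 in 4 of 4 embryos. Of the related ligands, 4 of 10 were tested and 0 passed. *Vegfa* had a log2 fold change of -0.21, negative in 4 of 4 embryos.

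**Figure D5:**
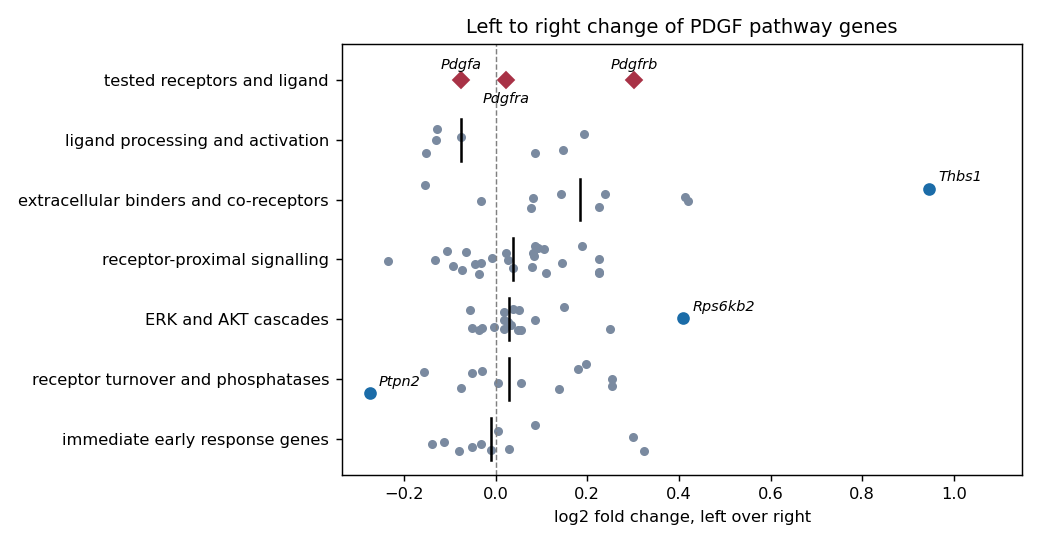
Log2 fold change of left over right (horizontal axis) of the 3 tested PDGF genes (diamonds) and of the tested genes in 6 pathway lists (points), with the median of each list as a vertical bar. Blue points mark the 3 genes that passed the threshold of the study, *Thbs1* (0.95), *Rps6kb2* (0.41) and *Ptpn2* (-0.28).

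The cell types that carry PDGF receptors were described in the same way. *Pdgfrb* is a marker of mural cells, and levels within the mural marker list were mixed. *Cspg4*, *Kcnj8*, *Abcc9* and *Myh11* were near 0, with means of 2.80, 0.203, 0.923 and 3.18 normalized counts. *Rgs5* had a mean of 165, and *Acta2*, which early cardiac muscle also expresses, of 609. The means of *Notch3*, *Tagln*, *Des*, *Mcam*, *Cnn1* and *Anpep* were 302, 108, 88.0, 45.9, 44.5 and 22.8. Of the 12 mural markers 8 were tested, and *Notch3* passed as higher and *Des* as lower on the left. *Notch3*, a Notch receptor found in mural cells among others, had a log2 fold change of 0.28 in 4 of 4 embryos. It did not pass without L49-3 (0.17) or with limma-voom (0.25), and had an r of 0.594 with *Pdgfrb* over the 8 libraries. By in situ hybridization of E8.5 embryos, the study detected *Notch3* across the lateral plate mesoderm, more strongly on the left. *Des*, which encodes the muscle intermediate filament desmin, had a log2 fold change of -0.54, had the higher left side in 1 of 4 embryos, and did not pass without L43-5 (-0.40), without L49-3 (-0.35) or with no replicate block (-0.50).

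Endothelial, epithelial, foregut, paraxial mesoderm, heart field and cardiomyocyte markers had 0 genes past the threshold, with 11, 10, 10, 7, 16 and 9 tested. Their medians were 0.12, 0.04, -0.04, -0.17, -0.13 and -0.20. With each embryo left out in turn, the last 4 took both signs, from -0.15 to 0.10 for foregut, -0.23 to 0.045 for paraxial mesoderm, -0.38 to 0.042 for heart field and -0.51 to 0.055 for cardiomyocyte markers, the last without L46-8 and L49-3, and the endothelial median ranged from 0.035 (without L49-3) to 0.16. The 7 neural tube markers tested were all negative, with a median of -0.28. So were all 9 cardiomyocyte and 6 of the 7 paraxial mesoderm markers tested, beside 5010 of the 9744 genes. *Pax6* (-0.83) and *Sox1* (-0.98) passed as lower on the left, each lower in 3 of 4 embryos. *Pax6* did not pass without L43-5 (-0.61) or L46-8 (-0.59), nor *Sox1* without L49-3 or with no replicate block (-0.97), and neither passed with DESeq2. Of the neural crest markers 5 were tested, 3 positive and 2 negative, with a median of 0.11. With an embryo left out this median ranged from -0.064 (without L49-3) to 0.26 (without L43-5). *Snai2*, a transcription factor of migrating mesenchyme, passed as higher, with 0.55 in 4 of 4 embryos. *Sox10*, *Foxd3* and *Tfap2b* had means of 3.96, 2.27 and 3.56 normalized counts and were not tested. The 10 markers of primitive blood were not tested, since none reached the filter. Any part of these tissues in the difference of *Pdgfrb* between sides was not tested.

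The genes most like each tested member were found by the Pearson r of their log2 levels over the 8 libraries, among 9743 genes and with no test. For *Pdgfrb* these were *Arid4b* (0.989), *Slc25a15* (0.972), *Itga8* (0.966), *Lyrm2* (0.966) and *Cit* (0.965), and 40 genes had an r over 0.9. *Pdgfra* was most like *Bmpr2* (0.986), a BMP receptor, *Cltc* (0.985), *Npc1* (0.982), *Bmp2* (0.982), a BMP ligand, and *Arhgap31* (0.982), with 176 genes over 0.9. *Pdgfa* was most like *Emc2* (0.979), *Gm10736* (0.966), *Nup188* (0.964), *Dkc1* (0.960) and *Sdad1* (0.957), with 38 genes over 0.9. Over the 6 libraries without L49-3, the r of these genes ranged from 0.851 to 0.951 for *Pdgfrb*, from 0.848 to 0.936 for *Pdgfra* and from 0.914 to 0.983 for *Pdgfa*.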

How the data were processed

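Poly-A RNA of the left and right heart field of 4 embryos was measured in 8 libraries. The deposited values are raw counts per gene for 48526 genes. Reads were aligned to GRCm38 with Hisat2 and counted with featureCounts by the authors, duplicates being excluded, so that the totals are smaller than the reads sequenced. Versions of these tools are not given in the sources used here. Symbols, positions and exon lengths came from GENCODE vM21, and promoters of 4 members from RefSeq (GRCm38.p6). Promoters of members on chromosome 18, where *Pdgfrb* lies, were left out, and none was used for *Pdgfb*. Of the 48526 identifiers 48144 had a symbol. Near-identical genes were sought with blastn 2.17.0 at 90% identity over 100 bases.

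Sides were tested in R 4.3.3 with edgeR 4.0.16 (TMM, quasi-likelihood test, embryo as a block) on 9744 genes, with Benjamini-Hochberg adjustment over all of them. The embryo term was tested in the same fit. DESeq2 1.42.0 and limma 3.58.1 were alternatives, with other scalings, filters, no block, and each embryo left out. Low members, levels and ratios used a pseudocount of 0.5 counts and exact sign-flip tests over 4 embryos. An alternative pseudocount of 2 counts for the ratios of the low ligands was added after seeing the data. Left and right libraries are paired because both come from the same embryo. The deviations of the sides correlated by 0.167, 0.187, -0.02 and 0.431 in L29-3, L43-5, L46-8 and L49-3, and by -0.388 to 0.253 between different embryos. No 2 libraries agreed within counting noise (lowest chi-square over its degrees of freedom, 1.93). Scripts were tested on simulated data.

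Values cover counting error through the total count per library, and a library with 0 counts could still hold up to 3. The members, gene lists and tests were chosen with earlier results of these data known. All members were named, with the genes of each list past the threshold or with its 2 smallest p-values, the 5 most like genes of each tested member, and *Notch3*. *Krt8*, *Epcam*, *Gata4*, *Tbx5*, *Isl1*, *Pax3*, *Fos*, *Fosb*, *Egr1*, *Egr3*, *Plau* and the marker genes given by level alone were named after their values were seen.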

Additional observations from a re-analysis of the deposited data

Results flagged for a closer look

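The left to right ratio of *Pdgfb* in L29-3 lay far from those of the other embryos. Its log2 ratio there was -0.41, with 15 counts left and 13 right, against 0.37 to 0.53 in the other 3. Of the 23 groups of 4 values examined for a value far from the rest, this was the single one. Chance alone flags about 1 group in 20, so 1 of 23 groups is near what chance gives. The counting interval of the ratio in L29-3, 0.337 to 1.73, overlapped those of the other embryos.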

How the results depend on the processing

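The adjusted p of *Pdgfrb* was 0.669 or more in all 14 settings, and its log2 fold change between 0.21 and 0.36 when each embryo was left out. With DESeq2 it was 0.31, past the fold but not the p threshold, and with DESeq2 or without L49-3 the number of members past the threshold was 0 rather than 1. With no replicate block *Pdgfrb* was at 0.30, and the block changed no call of a member. All genes past the threshold numbered 687 with no filter and 59 with DESeq2, against 297, and genes of the pathway lists 6 with no filter, against 3. With no filter, the fit used no separate spread for each gene but one pooled over genes, which can follow their mean level. Leaving out each embryo gave -0.24 to 0.062 for *Pdgfa* (0.021 without L43-5, 0.062 without L46-8), -0.073 to 0.082 for *Pdgfra* (-0.073 without L46-8) and -0.22 to 0.079 for *Pdgfc* (0.079 without L49-3), which thus have no stable direction. *Pdgfd* ranged from 0.027 to 0.998. Between embryos, 641 genes had an adjusted p under 0.05 with no filter, and 0 to 237 with an embryo left out (0 without L49-3, 237 without L46-8), against 17. The adjusted p of *Pdgfra* between embryos was 1.19e-06 with no filter, and 0.0115 to 0.985 with an embryo left out. The level of *Pdgfra* over *Pdgfa* ranged from -0.062 (without L29-3) to 0.41. Left minus right ratios ranged from -0.27 to 0.19 for *Pdgfa* to *Pdgfra* (0.05 without L43-5, 0.19 without L46-8), -0.23 to 0.13 for *Pdgfb* to *Pdgfrb* (0.13 without L29-3, 0.01 without L49-3) and -0.18 (without L49-3) to 0.63 for *Pdgfd* to *Pdgfrb*. The cause was not tested. Other settings kept direction and side of the threshold in 164 comparisons. The counts of *Pdgfb*, *Pdgfc* and *Pdgfd* give them wide counting intervals.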
